A study of Mus musculus with 16 samples.

Results

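The genes described here were *Ebf1*, *Ebf2*, *Ebf3*, *Ebf4*, *Bend6* and *Zcchc12*, 6 of the 47451 gene symbols in 2 tables of transcript counts from mouse retina, with 35 of the 117860 transcripts listed. They are transcriptional regulators named in the study's account of these data (*Ebf1*, *Bend6* and *Zcchc12*), together with the paralogs of *Ebf1*. All transcripts carrying one of these symbols were taken, and the transcript with the highest mean count over the 16 libraries stood for its gene. *Ebf1*, *Bend6* and *Zcchc12* were chosen by their measured change between Brn3bcKO and control IPs, and the study considered only transcripts that were higher in tagged than in untagged immunoprecipitates, so for these 3 genes the response to BRN3B is given as a description with no test, and their difference from untagged retinas, tilted upward by that choice, is given in the same way. Their change over input shares the tagged IPs with that choice.

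The samples were retinas of mice at postnatal day 60, profiled by translating ribosome affinity purification (TRAP), in which an antibody to the HA tag pulls down tagged ribosomes with the mRNA they carry. All mice carried *Opn4*-Cre, which drives Cre recombinase from the melanopsin gene of intrinsically photosensitive retinal ganglion cells (ipRGCs). The first table held 2 immunoprecipitates (IPs) and 2 inputs (1.5% of the lysate) from *Opn4*-Cre; Rpl22-HA retinas, whose ribosomal protein RPL22 gains its HA tag after Cre recombination, and 2 IPs and 2 inputs from *Opn4*-Cre retinas without Rpl22-HA, called untagged below. The second table held HA IPs from 4 *Opn4*-Cre; Rpl22-HA mice with intact *Brn3b* (control) and from 4 *Opn4*-Cre; Rpl22-HA; Brn3bcKO-AP mice (Brn3bcKO), in which Cre removes *Brn3b* (*Pou4f2*) from the cells that also gain the tag. The retinas of an animal were combined, and 1 female and 3 male mice were in each group of the second table.

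EBF proteins, also called early B cell factors or Olf/EBF proteins, are DNA-binding factors of the helix-loop-helix class that act as dimers in B lymphocytes and in developing neurons. BEND6 is a BEN domain protein known in mouse neural cells as a corepressor that binds CSL (RBPJ), the DNA-binding factor of Notch signaling. ZCCHC12, encoded on the X chromosome and related to the PNMA family, is a zinc finger protein known in mouse as a transcriptional coactivator in bone morphogenetic protein (BMP) signaling.

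In mm10 coordinates, *Ebf1* lies on chromosome 11 (44617317 to 45008091, plus strand), *Bend6* on chromosome 1 (33852052 to 33907816, minus strand) and *Zcchc12* on chromosome X (36195904 to 36199158, plus strand). *Ebf2* lies on chromosome 14 (67233292 to 67430918, plus strand), *Ebf3* on chromosome 7 (137193673 to 137314445, minus strand) and *Ebf4* on chromosome 2 (130295169 to 130370481, plus strand). The annotation places opposite-strand genes inside *Ebf1* (Gm12158), *Ebf2* (5 genes) and *Ebf3* (Gm45278 and Gm10578), and Gm37067 on the strand of *Bend6*. The sources used here do not say whether strand was used in counting, so reads of these genes cannot be told apart from those of their overlapping partners.

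The promoters of *Ebf1*, *Bend6* and *Zcchc12* are shown because these genes lay lower (*Ebf1*, *Bend6*) or higher (*Zcchc12*) in Brn3bcKO IPs. Each window runs from 250 bases before to 50 bases after a RefSeq start on GRCm38.p6, 5′ to 3′ on the strand of its gene, in lower case, and capitals mark the only motif match found. The windows are *Ebf1* A (chr11:44617850-44618149, plus strand), *Ebf1* B (chr11:44619978-44620277, plus strand), *Bend6* (chr1:33907572-33907871, minus strand) and *Zcchc12* (chrX:36195654-36195953, plus strand). Both *Ebf1* windows lie downstream of 44617317, where the representative *Ebf1* transcript starts in GENCODE, so the sequence around that start is not shown or searched. The *Ebf4* window searched below (chr2:130295689-130295988) likewise misses the representative start at 130295169. For *Bend6* the representative start (33907816) lies inside the printed window, upstream of its RefSeq start.
Ebf1 A: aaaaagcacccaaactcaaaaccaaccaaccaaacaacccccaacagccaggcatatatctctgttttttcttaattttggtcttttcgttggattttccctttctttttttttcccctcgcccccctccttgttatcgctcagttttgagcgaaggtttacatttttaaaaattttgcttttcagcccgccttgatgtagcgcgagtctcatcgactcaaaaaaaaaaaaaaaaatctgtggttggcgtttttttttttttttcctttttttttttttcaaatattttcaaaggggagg
Ebf1 B: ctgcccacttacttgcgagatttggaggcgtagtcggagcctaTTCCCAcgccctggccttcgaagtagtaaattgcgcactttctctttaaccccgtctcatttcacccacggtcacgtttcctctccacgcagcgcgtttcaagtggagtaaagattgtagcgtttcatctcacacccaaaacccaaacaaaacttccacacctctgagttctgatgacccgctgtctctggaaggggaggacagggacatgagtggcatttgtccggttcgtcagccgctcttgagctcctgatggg
Bend6: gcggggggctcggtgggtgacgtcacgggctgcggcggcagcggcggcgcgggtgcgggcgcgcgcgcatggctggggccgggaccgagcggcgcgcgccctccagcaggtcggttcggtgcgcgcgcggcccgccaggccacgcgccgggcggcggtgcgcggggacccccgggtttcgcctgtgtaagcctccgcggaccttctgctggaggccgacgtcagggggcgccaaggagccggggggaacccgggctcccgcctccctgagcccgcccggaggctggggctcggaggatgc
Zcchc12: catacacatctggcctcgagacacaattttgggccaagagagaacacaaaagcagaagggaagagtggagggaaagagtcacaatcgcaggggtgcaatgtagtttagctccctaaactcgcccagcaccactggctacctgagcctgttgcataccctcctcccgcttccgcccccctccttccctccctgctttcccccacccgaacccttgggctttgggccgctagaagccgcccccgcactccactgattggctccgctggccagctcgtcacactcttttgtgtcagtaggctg

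Base composition separated these windows. The *Bend6* window had 80.7% G and C with 48 CpG dinucleotides, the *Zcchc12* window 58.3% with 11, and the *Ebf1* windows 36.7% with 9 (A, which holds long runs of T) and 53.0% with 17 (B), against a median of 52.7% over all promoters in the table. The *Ebf3* and *Ebf4* windows had 77.0% and 74.3%, and a second *Bend6* window 83.7%. Across the 7 windows of 5 of the 6 genes, neither strand held an EBF consensus (TCCC and GGGA with any 2 bases between them, present in 0.904% of the 32851 promoters), a POU4F consensus (ATAATTAA, 1.18%) or the shorter POU4F core (CATTAA, 8.84%). The CSL core (TGGGAA, 25.6% of promoters) was found once, on the minus strand of window *Ebf1* B, at position -207 relative to the start.

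Total counts ran from 2332612 to 14512132 in the first table, where the lowest was an untagged input, and from 12994498 to 20350881 in the second. The cell types were checked with marker lists. In Rpl22-HA IPs over inputs, 12 of 14 pan-RGC markers, 5 of 7 ipRGC markers and 11 of 12 cone markers rose, while 2 of 4 horizontal cell markers also rose and 9 of 10 rod, 6 of 8 amacrine and 6 of 6 Müller glia markers fell. In untagged IPs over inputs, none of the pan-RGC and ipRGC markers and 1 of 12 cone markers rose. Those that fell there were 4 of 14 pan-RGC, 1 of 7 ipRGC and 6 of 12 cone markers. So did 7 of 10 rod, 5 of 8 amacrine and 6 of 6 Müller glia markers. Of all genes, 14.4% were called higher and 7.08% lower in the tagged comparison, and 21.2% and 15.7% in the untagged one. *Pou4f2* itself was at 36.8, 44.7, 53.6 and 64.2 normalized CPM (counts scaled to a common library size) in control IPs and at 18.8, 24.9, 33.8 and 34.0 in Brn3bcKO IPs. The groups did not overlap, as for 5.01% of all genes in that direction. The log2 fold change of -0.83 ± 0.22 (SE) did not pass the threshold (edgeR quasi-likelihood test, adjusted p = 0.0852). Y-linked counts summed over 4 genes were 0 to 7 in untagged libraries and 135 to 370 in Rpl22-HA libraries, against labels of pooled sexes for both, so a difference between tagged and untagged retinas cannot be told apart from a difference of sex.

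*Ebf1* (2.22 on the log2 scale), *Ebf3* (1.44) and *Bend6* (1.34) rose in tagged IPs over their inputs, *Ebf3* at a lower level than the other two, *Zcchc12* fell and *Ebf4* did not pass the test. Of the 5 genes whose representative passed the filter on low counts in the first table, 3 were called higher and 1 lower in Rpl22-HA IPs than in inputs, at an absolute log2 fold change over 1 and an adjusted p under 0.05 (edgeR). Over all genes tested with 1 transcript each, 14.4% were called higher and 7.08% lower. *Ebf1*, *Bend6* and *Zcchc12* were chosen among transcripts higher in tagged than in untagged IPs. Nothing is therefore read from their calls against these shares. The values below are CPM normalized by trimmed mean of M values, for replicates 1 and 2, and each library was 1 sample.

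*Ebf1* was at 85.7 and 82.5 CPM in Rpl22-HA IPs and at 18.7 and 17.3 in their inputs. In untagged retinas it was at 10.7 and 13.7 in IPs and at 9.82 and 16.2 in inputs, so that the tagged IPs stood above all 6 other libraries. The rise over input was 2.22 ± 0.19 on the log2 scale, or 4.66-fold (adjusted p = 1.4e-07), and within each lysate the IP was 4.58 and 4.76 times its input. In untagged lysates this ratio was 1.09 and 0.846, and the fitted change was -0.18 ± 0.22 (adjusted p = 0.515).

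*Bend6* was at 79.6 and 73.9 CPM in Rpl22-HA IPs, 27.1 and 33.6 in inputs, 36.7 and 35.3 in untagged IPs and 31.1 and 38.7 in untagged inputs. Only the tagged IPs stood apart, and the other 6 libraries lay within 27.1 to 38.7. The rise over input was 1.34 ± 0.17 on the log2 scale (2.53-fold, adjusted p = 9.93e-06), with ratios of 2.94 and 2.20 in the 2 lysates. The untagged retinas gave 0.02 ± 0.18 (adjusted p = 0.945), with ratios of 1.18 and 0.912.

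*Ebf3*, a paralog of *Ebf1*, was at 7.28 and 9.30 CPM in Rpl22-HA IPs and at 2.27 and 3.83 in inputs, a rise of 1.44 ± 0.32 on the log2 scale (2.71-fold, adjusted p = 0.00218). In untagged retinas it was at 2.10 and 3.17 in IPs and at 4.91 and 4.75 in inputs, so that the IPs were the lower group there, with a fitted change of -0.84 ± 0.37 (adjusted p = 0.0634). The untagged change did not pass the test. The call in tagged retinas was lost without Rpl22-HA IP replicate 2 (1.10, adjusted p = 0.0599) or without Rpl22-HA input replicate 1 (1.12, adjusted p = 0.0619).

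*Zcchc12* was lower in IPs than in inputs in both genotypes. It was at 5.31 and 6.07 CPM in Rpl22-HA IPs against 9.54 and 13.4 in inputs, a change of -1.01 ± 0.27 on the log2 scale (adjusted p = 0.00819). In untagged retinas it was at 1.05 and 1.62 in IPs against 6.55 and 9.49 in inputs, a change of -2.61 ± 0.35 (adjusted p = 8.38e-06), where 15.7% of all genes were called lower. Per lysate, IPs held 0.557 and 0.454 of the input level in tagged retinas and 0.161 and 0.171 in untagged ones. The tagged change lay at the fold threshold: with the lysate as a replicate block it was -0.999 (adjusted p = 0.00254) and no longer called, nor was it without untagged input replicate 2 (-0.999), and without Rpl22-HA input replicate 2 it was -0.74 (adjusted p = 0.174).

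*Ebf4* had its highest level of the first table in untagged IPs. It was at 4.20 and 4.16 CPM there and at 0.818 and 1.03 in untagged inputs, a rise of 2.10 ± 0.47 on the log2 scale (4.27-fold, adjusted p = 0.00124). Among genes, 21.2% were called higher in this comparison. In Rpl22-HA retinas it was at 1.37 and 1.58 in IPs and at 1.31 and 0.929 in inputs (0.39 ± 0.44, adjusted p = 0.526), and counts there were only 8 to 20.

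*Ebf2* was barely detected in the first table. Its counts were 5 and 21 in Rpl22-HA IPs, 0 and 4 in inputs, 0 and 5 in untagged IPs and 0 and 2 in untagged inputs, so it did not pass the filter and was not tested there. Its level in the tagged IPs was 0.429 and 1.65 CPM.

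**Figure D1:**
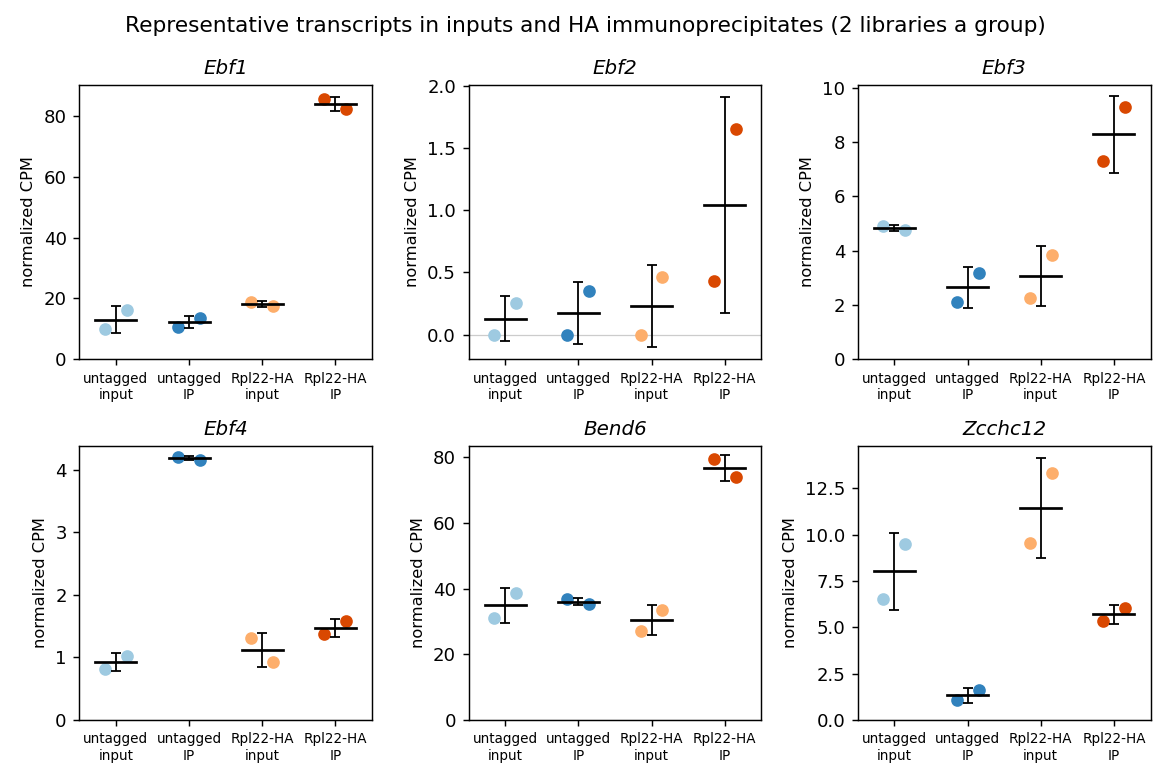
Normalized CPM (y axis, linear, separate scale for each gene) of the representative transcript in untagged and Rpl22-HA inputs and IPs (x axis). Points are libraries, horizontal bars means and error bars SD of 2 libraries. *Ebf1* and *Bend6* stand high only in Rpl22-HA IPs (82.5 to 85.7 and 73.9 to 79.6), and *Ebf4* only in untagged IPs (4.16 and 4.20).

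The enrichment in tagged retinas was next set against that in untagged retinas, in a contrast that shares its Rpl22-HA libraries with the comparison above. Of the paralogs tested, *Ebf3* had a higher enrichment in Rpl22-HA retinas (edgeR), by 2.28 ± 0.49 on the log2 scale (adjusted p = 0.00144), where 24.2% of all genes were called higher and 20.4% lower at an adjusted p under 0.05. For the genes whose choice used the tagged and untagged IPs, the difference was 2.40 ± 0.29 for *Ebf1*, 1.61 ± 0.44 for *Zcchc12* and 1.32 ± 0.24 for *Bend6*, given with no test. For *Zcchc12* the positive difference stood for a smaller fall, not a rise, over input. *Ebf4* was at -1.70 ± 0.67 (adjusted p = 0.0522), and 4 of its 6 transcripts were called lower, as were 17.6% of all transcripts.

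Another scaling of the libraries gave lower values. Scaled over only the transcripts with a higher mean level in Rpl22-HA than in untagged IPs, *Ebf3* was at 1.25 (adjusted p = 0.0642), *Ebf1* at 1.38, *Zcchc12* at 0.59 and *Bend6* at 0.30. By construction this scaling brings the median difference of those transcripts close to 0, from 0.95 to -0.08, and so lowers all the values together.

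**Figure D2:**
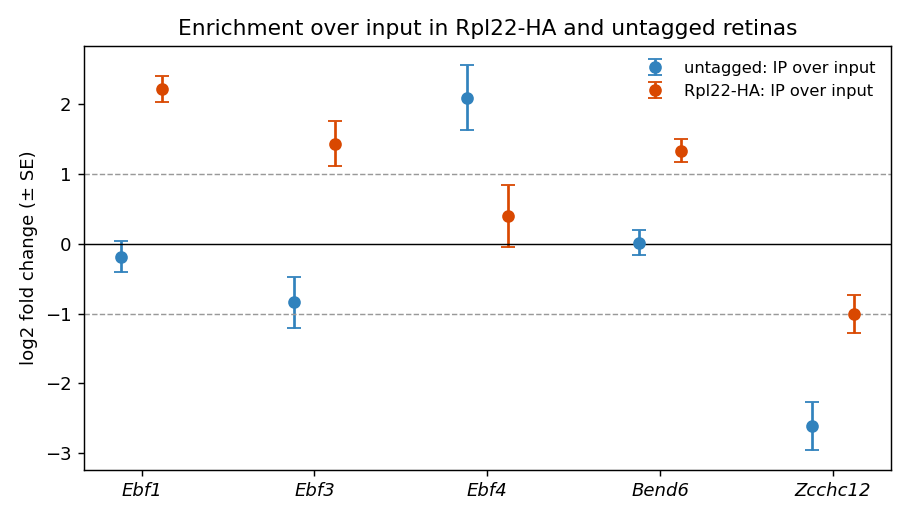
Log2 fold change of IP over input (y axis, ± SE of the edgeR fit) for the 5 tested genes (x axis) in untagged and Rpl22-HA retinas; dashed lines mark a log2 fold change of 1 in either direction. *Ebf1*, *Bend6* and *Ebf3* lie above 1 in Rpl22-HA retinas only, *Ebf4* in untagged retinas only, and *Zcchc12* lies lower in untagged (-2.61) than in Rpl22-HA retinas (-1.01).

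Levels were compared between genes per kilobase of the representative transcript. In Rpl22-HA IPs the order was *Bend6* (30.9 ± 1.63 CPM per kb, SD, n = 2), *Ebf1* (14.1 ± 0.381), *Zcchc12* (2.61 ± 0.244), *Ebf3* (1.66 ± 0.285), *Ebf4* (0.494 ± 0.0485) and *Ebf2* (0.200 ± 0.167), and the ranges of neighbours did not overlap. In their inputs *Zcchc12* (5.25 ± 1.24) stood second, above *Ebf1* (3.01 ± 0.168). In the control IPs of the second table the order was that of the tagged IPs, at 28.5 ± 3.37, 12.8 ± 1.12, 3.37 ± 0.525, 2.56 ± 0.537, 0.527 ± 0.171 and 0.294 ± 0.0969 (SD, n = 4), with overlapping ranges between *Zcchc12* and *Ebf3* and between *Ebf4* and *Ebf2*. In Brn3bcKO IPs *Ebf1* (7.34 ± 2.36) and *Zcchc12* (5.61 ± 1.35) also overlapped, having been 12.8 and 3.37 in controls.

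Loss of BRN3B went with lower *Ebf1* and *Bend6* and higher *Zcchc12* in the IPs, the pattern for which the study named them. *Ebf1* was at 86.0, 70.4, 77.1 and 73.7 CPM in control IPs and at 30.3, 33.9, 59.5 and 52.0 in Brn3bcKO IPs, for replicates 1 to 4. The groups did not overlap, and the 2 lowest Brn3bcKO libraries lay well under the other 2. The log2 fold change was -0.80 ± 0.21 (SE). In bulk IPs, fewer cells of a type and less RNA per cell cannot be told apart. The study's methods adjusted fold changes for counts of HA-labeled ipRGCs and cones in both lines, and no such adjustment was made here.

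*Bend6* was at 61.0, 69.5, 71.4 and 81.4 CPM in control IPs and at 41.5, 41.3, 48.0 and 49.5 in Brn3bcKO IPs. Every Brn3bcKO library was below every control library, and both groups were tight. The log2 fold change was -0.65 ± 0.16.

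*Zcchc12* was at 8.11, 7.03, 8.38 and 5.87 CPM in control IPs and at 8.54, 12.0, 12.7 and 15.7 in Brn3bcKO IPs. The groups did not overlap, although the lowest Brn3bcKO library (8.54) was just above the highest control library (8.38). The log2 fold change was 0.74 ± 0.22. Groups stood apart downward for 5.01% and upward for 5.46% of all genes tested, and nothing is read from the 3 named genes against these shares, since this contrast chose them.

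The paralogs of *Ebf1* were not chosen in this contrast and were tested. None of the 3 passed at an adjusted p under 0.05 (edgeR), none had an unadjusted p under 0.05, and none was called by DESeq2. The edgeR fit called 0.682% of all genes higher and 0.905% lower. *Ebf1*, *Bend6* and *Zcchc12* were not called in that fit either, so its calls do not set the paralogs apart from them. *Ebf3* was at 10.3, 12.4, 11.9 and 16.6 CPM in control IPs and at 7.26, 10.0, 13.2 and 17.2 in Brn3bcKO IPs, with the Brn3bcKO values on both sides of the control range (-0.09 ± 0.25, adjusted p = 0.899). *Ebf2* was at 1.39, 2.27, 1.29 and 1.16 against 0.639, 0.972, 1.20 and 1.81 (-0.37 ± 0.38, adjusted p = 0.700). *Ebf4* was at 2.32, 1.17, 1.34 and 1.45 against 0.878, 1.94, 2.05 and 1.26 (-0.02 ± 0.36, adjusted p = 0.986). With counts of 8 to 36 per library, the errors of *Ebf2* and *Ebf4* leave changes of the size seen for *Bend6* undetectable at this depth. The error of *Ebf3* (0.25) was also larger than that of *Bend6* (0.16), which was itself not called. A change of that size in *Ebf3* could therefore go uncalled too.

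**Figure D3:**
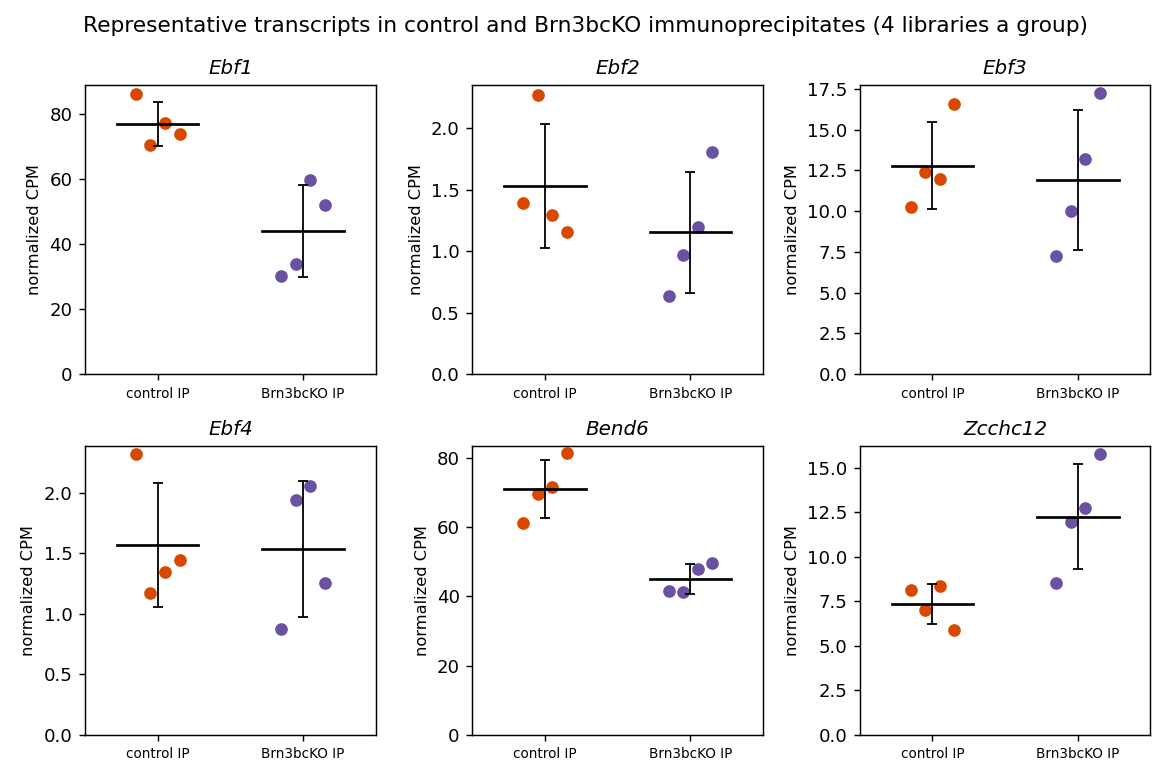
Normalized CPM (y axis, linear, separate scale for each gene) of the representative transcript in 4 control and 4 Brn3bcKO IPs (x axis). Points are libraries, horizontal bars means and error bars SD. *Ebf1*, *Bend6* and *Zcchc12*, which this comparison chose, do not overlap between groups, and *Ebf2*, *Ebf3* and *Ebf4* do.

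Markers of other cells moved in the same libraries. Of all genes tested, 0.682% were called higher and 0.905% lower. Single genes stood apart between the groups upward for 5.46% and downward for 5.01%. Of 12 cone markers 7 rose in Brn3bcKO IPs, and their summed level was 4485 to 7765 CPM in controls and 8920 to 12519 in Brn3bcKO, while the sum of 14 pan-RGC markers was 4134 to 5727 and 2557 to 3502, with 3 of them lower. The sum of 7 ipRGC markers was 307 to 449 in controls and 253 to 360 in Brn3bcKO, with overlapping ranges and 1 marker lower. The summed rod markers were at 6641 to 8807 CPM in controls and 9323 to 14913 in Brn3bcKO, the bipolar markers at 583 to 975 and 1073 to 1496, and the amacrine markers at 129 to 174 and 181 to 208, all without overlap. Of these lists 2 of 8 bipolar markers were called higher and no rod or amacrine marker was called. The bipolar and cone lists share *Gnb3*, so their sums and counts are not separate. Müller glia markers (313 to 426 and 372 to 528) and horizontal cell markers (152 to 247 and 73.4 to 166) overlapped. No marker of these 8 lists was at 0 in all libraries of a group. The part of these shifts in the values of *Ebf1*, *Bend6* and *Zcchc12* was not tested. With libraries scaled to the pan-RGC list, which moved the median of all transcripts from 0.03 to 0.68, *Ebf1* was at -0.20 ± 0.20, *Bend6* at 0.00 ± 0.19 and *Zcchc12* at 1.36 ± 0.25, and *Ebf2*, *Ebf3* and *Ebf4* took a positive sign. This scaling takes the listed genes as unaffected by BRN3B itself, which was not tested. The scaled values are therefore not changes net of RGC content.

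The other transcripts of each gene mostly moved as the representative did, but they share reads and are not independent. Of the 35 transcripts, 24 passed the filter among the IP and input libraries and 27 among the control and Brn3bcKO IPs. In Rpl22-HA IPs over inputs all 5 passing *Ebf1* transcripts (1.64 to 2.22 on the log2 scale) and all 4 of *Bend6* (1.01 to 1.57) were called higher, as were 3 of 5 of *Ebf3* (1.31 to 1.77), while 2 of 4 of *Zcchc12* (-1.01 to -0.98) were called lower and none of 6 of *Ebf4* (0.26 to 0.39) was called. Over all transcripts, 13.7% were called higher and 7.23% lower. In Brn3bcKO IPs, transcripts ran from -0.99 to -0.75 for *Ebf1*, from -0.67 to -0.62 for *Bend6* and from 0.72 to 0.74 for *Zcchc12*. The 3 protein-coding *Ebf1* transcripts share their start and carry coding regions of 1752, 1773 and 1776 bases.

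**Figure D4:**
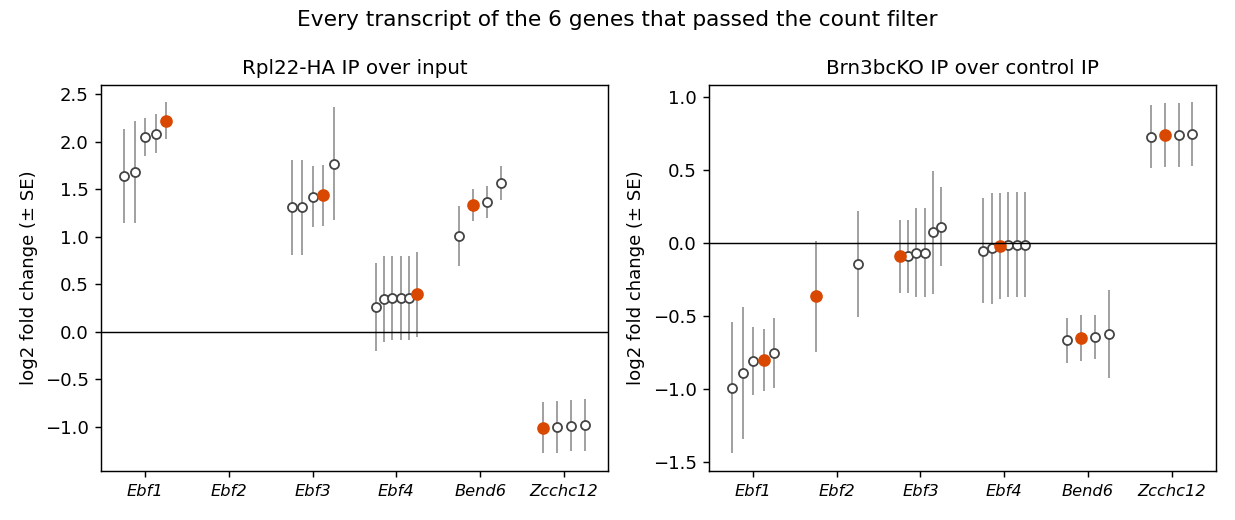
Log2 fold change (y axis, ± SE) of every transcript that passed the count filter, by gene (x axis), for Rpl22-HA IP over input (left) and Brn3bcKO over control IP (right). Filled points are the representative transcripts and open points the other transcripts. Transcripts of one gene lie together, and *Ebf2* had none that passed on the left.

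Genes of the pathways in which these regulators act were next set against their inputs in Rpl22-HA retinas, where 14.4% of all genes were called higher and 7.08% lower. Among 8 factors that bind or work with EBF proteins, *Tet2* (a DNA demethylation enzyme) rose by 1.78 on the log2 scale and *Lhx2* (a LIM homeobox factor) fell by 2.87, with a list median of 0.08. In untagged retinas *Tet2* also rose (3.44) and *Lhx2* also fell (-1.32). Of 6 tested BEN domain genes, *Bend5* (2.55) rose and none fell, with a median of 0.79, and in untagged retinas *Bend5* was at 0.65 and not called. Of 18 Notch and CSL genes 1 rose and 5 fell, with a median of 0.01, and the median of all genes with 1 transcript each was 0.21. The Notch target genes *Hes1* (-1.45), *Hes5* (-1.69) and *Hey2* (-2.46) fell, and *Spen*, a corepressor that binds CSL, rose by 2.54. The target gene *Hey1* (0.42) was among the 12 not called. In untagged retinas *Hes1* fell alike (-1.42) and *Spen* rose (4.69), while *Hes5* (0.35) and *Hey2* (0.10) were not called.

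Of 6 tested PNMA family genes, *Pnma2* rose (1.61) and none fell, with a median of 0.58, while *Pnma2* fell in untagged retinas (-1.63). In the BMP and SMAD list, 2 of 17 rose and 4 fell, with a median of 0.09, again beside 14.4% and 7.08% of all genes. *Smad9*, a transducer of BMP signals, rose from a mean of 1.11 to 9.02 CPM and the acetyltransferase gene *Ep300* by 1.39 on the log2 scale, while the BMP target genes *Id1* (-2.89) and *Id3* (-2.56) fell. In untagged retinas *Ep300* rose (2.92), and *Smad9* (-0.54), *Id1* (-0.65) and *Id3* (-0.98) were not called.

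In Brn3bcKO IPs none of these lists had a member called by edgeR. At an unadjusted p under 0.05 there were 1 of 8 EBF partners, 3 of 7 BEN domain genes, 8 of 19 Notch and CSL genes, 1 of 7 PNMA genes and 5 of 19 BMP and SMAD genes, where 17.8% of all genes were under it, and DESeq2 called 0, 0, 4, 1 and 2, and 5.43% of all genes. The list medians were 0.42, 0.35, 0.34, -0.28 and 0.33, against 0.05 over all genes with 1 transcript each.

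The genes most like each member across the 16 libraries were found by Pearson's r of log2 CPM centred within each table, over 9878 genes with a mean count of at least 50 in both tables, which left out *Ebf2*, *Ebf3* and *Ebf4*. For *Ebf1* they were *S100b* (a calcium-binding protein, r = 0.975), *Fgf11* (an intracellular fibroblast growth factor homolog, 0.975) and *Sv2c* (a synaptic vesicle glycoprotein, 0.972). For *Bend6* they were *Rimkla* (0.957), 1190002N15Rik (0.954) and *Kitl*, the ligand of the KIT receptor (0.951). For *Zcchc12* they were *Snw1* (0.947), *Ik* (0.945) and *Mfge8* (0.941). Between members r was 0.888 for *Ebf1* and *Bend6*, 0.131 for *Ebf1* and *Zcchc12* and -0.168 for *Bend6* and *Zcchc12*. These values describe libraries that share their groups and scaling, and carry no test.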

How the data were processed

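The authors prepared Smart-seq3 libraries from HA IP and input RNA of retinas, read 37 bp from both ends of each fragment and mapped the reads to mm10 with the Smart-seq3 pipeline, whose version and annotation release are not given in the sources used here. The deposited values are raw counts per Ensembl transcript, with no normalization, in 2 tables of 8 libraries, and 17 rows that repeat a transcript under another symbol were dropped. Many transcripts of a gene share reads, so transcripts were not summed.

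Counts were filtered with filterByExpr (45189 and 43975 transcripts kept), scaled by TMM and tested in edgeR 4.0.16 (R 4.3.3) with the quasi-likelihood test, on group alone, with Benjamini-Hochberg adjustment across every transcript tested. DESeq2 1.42.0 was an alternative. The study kept only transcripts higher in Rpl22-HA than in untagged IPs, and here that selection was an alternative, since it uses the same IPs. The tests were tried on simulated data. IP and input of one number came from one lysate, per the labels' protocol, so these numbers pair the samples. In the second table, deviations of same-numbered libraries correlated at 0.362, 0.194, 0.0384 and -0.00274, and the numbers were not taken as pairs. The labels call libraries of the first table pools of both sexes, so p-values there measure the spread between lysates, and total counts set the precision of low genes.

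Members, gene lists and markers were chosen with earlier results of these data known. Named genes were the 6 members, *Pou4f2* as a check, for each list the called genes of lowest p (at most 4), and the 3 genes most like each member by r. Outside this rule, *Hey1* was named as a Notch target that was not called, and *Gnb3* as a shared marker. Gene positions came from GENCODE M21 on mm10, where all 35 transcripts were found, and promoters from RefSeq.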

Additional observations from a re-analysis of the deposited data

Results flagged for a closer look

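Enrichment over input was higher in Rpl22-HA than in untagged retinas for *Ebf3*, by a test of the difference itself (log2 difference 2.28, edgeR). For *Ebf1* (2.40), *Zcchc12* (1.61) and *Bend6* (1.32) the difference is a description with no test. *Ebf1*, *Zcchc12* and *Bend6* were chosen among transcripts higher in tagged than in untagged IPs, so their differences are no independent support. With libraries scaled over only such transcripts, *Ebf3* (1.25) was no longer called. *Zcchc12* was then at 0.59 and *Bend6* at 0.30, under a scaling that lowers these differences by construction. Over input *Ebf3* was at 1.44 in Rpl22-HA retinas (called) and at -0.84 in untagged ones (adjusted p = 0.0634, not called), and *Zcchc12* fell in both. The mix of sexes differed between these genotypes by Y-linked counts, so its part cannot be told apart, and *Zcchc12* is X-linked. In the second table, no library of the 6 genes stood far from the others of its group in 12 groups tested.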

How the results depend on the processing

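Settings were changed one at a time, except that DESeq2 changed the size factors with the test and the rescaled selection changed the transcripts with the scale factors. In the tagged against untagged contrast *Zcchc12* (1.61, given with no test) was at 1.40 without Rpl22-HA input replicate 1. It was at 1.22 without untagged input replicate 2. Without a library an arm of the first table holds 1 sample, assumed to vary like the other groups. *Ebf1* kept its direction and call over input in Rpl22-HA retinas under every alternative, and *Bend6* under every one other than the rescaled selection. Under the selection with scale factors over the selected transcripts, chosen after seeing the data, *Bend6* was at 0.95, below the fold threshold, while its adjusted p was 5.38e-05. *Ebf3* ran from 1.10 to 1.87 over single left-out libraries and *Zcchc12* from -1.25 to -0.74. With the lysate as a replicate block *Zcchc12* was at -0.999, and the block changed no other member's call. Scaling to the pan-RGC list moved *Ebf1* to -0.20, *Bend6* to -0.0029 and *Zcchc12* to 1.36 in Brn3bcKO; the other alternatives kept their sign. *Ebf3* was called lower in untagged IPs only without untagged IP replicate 2 (-1.24, adjusted p = 0.0203). *Ebf4* was called lower in the tagged against untagged contrast under upper quartile normalization (-1.80, adjusted p = 0.0408) and without untagged IP replicate 1 (-1.85, adjusted p = 0.04) or 2 (-1.82, adjusted p = 0.0488). A mean count of at least 50 removed *Ebf2*, *Ebf3* and *Ebf4* from the first table, and the selection removed *Ebf4*. The cause of these shifts was not tested.

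Counts of called transcripts moved more, but several alternatives changed how many transcripts were tested, here and for Brn3bcKO. These were no filter, the minimum mean count, both selections and 1 transcript per gene, so their counts alone do not measure stability. By construction, the plain selection on tagged over untagged IPs lowers calls higher in untagged IPs and calls lower in the tagged against untagged contrast. For Rpl22-HA IP over input, 13.7% of 45189 transcripts were higher, and 14.4% of 14099 genes with 1 transcript each. Of the transcripts, 6179 were higher and 3269 lower. The number higher was 3960 with DESeq2, 4102 with upper quartile normalization (4765 lower, 46.3% of calls higher against 65.4%), 3223 with a mean count of at least 50 (1442 lower), 2276 with the selection rescaled (1806 lower) and 2002 with 1 transcript per gene (973 lower), and the plain selection gave 796 lower (84.4% higher). Over left-out libraries it ran from 3664 to 6326, with the lowest without Rpl22-HA IP replicate 2 and 3996 without replicate 1. For untagged IP over input, 9654 were higher and 7465 lower, against 5304 and 4346 with the count minimum, 264 higher with the selection (3.76% of calls), 1758 and 2475 with it rescaled (41.5% against 56.4%) and 2932 and 2169 with 1 transcript per gene. For tagged against untagged enrichment, 9310 were higher and 7959 lower, against 3232 and 2301 with the selection rescaled, 4 lower with the plain selection and 3470 and 2896 with 1 transcript per gene. The number lower ran from 5016 (without Rpl22-HA input replicate 1; 5242 without untagged input replicate 2) to 10115.

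For Brn3bcKO, 190 were higher and 323 lower. DESeq2 gave 814 and 973, no filter 672 and 675, the selection 335 and 867, the selection rescaled 607 and 561 (52% higher against 37%), sex as a covariate 110 higher, the pan-RGC scaling 17127 and 141, and 1 transcript per gene 170 lower. The replicate number as a replicate block gave 687 and 761, although these numbers were not taken as pairs. Without single libraries the number higher ran from 11 (control replicate 3) to 235 and the number lower from 124 (control replicate 4) to 271. The number higher was also 17 without control replicate 4 and 60 without replicate 2, and 29, 53 and 123 without Brn3bcKO replicates 3, 4 and 2. The number lower was 125 without control replicate 3, and 134, 174 and 204 without Brn3bcKO replicates 3, 2 and 4.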
